A study of Mus musculus with 16 samples.

Results

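The purinergic and adenosine signalling genes examined here were 10 genes chosen by symbol from the 24060 genes listed in each table: *P2ry1*, *P2ry14*, *P2rx7*, *P2rx4*, *Adora1*, *Adora2a*, *Adora2b*, *Entpd2*, *Nt5e* and *Adk*. All 10 symbols were found in all 16 libraries. The libraries came from the somatosensory cortex of 3-month-old C57BL/6J mice of the genotype Aldh1l1CreERT2-RiboTag. Every mouse, control or stressed, carried both alleles and had received tamoxifen i.p. at 2 months of age, after which cells with an active *Aldh1l1* promoter make a ribosomal protein with an HA tag. There were 4 groups of 4 libraries. Naïve IP and stress IP hold the RNA pulled down with tagged ribosomes, which is RNA on astrocyte ribosomes, and naïve INPUT and stress INPUT hold the cleared lysate, which is RNA of all the cell types in the tissue. Stressed mice swam for 20 min and rested in the home cage for 90 min, and naïve mice stayed in the home cage. By the study's methods the IP and INPUT libraries came from the same 8 mice of both sexes, but the labels do not say which libraries share a mouse, so all libraries were treated as independent.

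Cells release ATP, which acts at the cell surface on P2X receptors, which are ion channels, and on P2Y receptors, which act through G proteins. Ecto-enzymes then strip the phosphates in steps, and the adenosine that results acts on its own receptors until it is taken up and phosphorylated again by adenosine kinase. Astrocytes are known both to release ATP and to clear adenosine, and this couples their activity to neurons and microglia.

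Depth ran from 16392876 to 25814364 reads on genes per library. The 8 astrocyte markers were all higher in IP, and their sum was 82980 to 87680 in naïve IP, as reads scaled to a library total of 1000000 (CPM), against 5052 to 5424 CPM in naïve INPUT. All 7 neuronal and all 8 microglial markers were lower in IP, although none was at 0, and the microglial sum was 38.2 to 43.2 CPM in naïve IP against 311 to 347 CPM in naïve INPUT. Some markers of other cell types were higher in naïve IP. These were 1 of 6 for oligodendrocytes (5 lower) and 2 of 5 for mural cells and fibroblasts (3 lower). The mean sum of the mural and fibroblast markers was 197 CPM in naïve IP and 89.4 CPM in naïve INPUT. In IP, the number of genes that passed the test for stress rose from 55 to 122 without naïve IP replicate 11 and to 101 without stress IP replicate 15, so values without these libraries are given where they bear on a result. The test was limma on log2(CPM + 0.1) with Benjamini-Hochberg adjustment over all genes with a mean above 1 CPM, at an adjusted p of 0.05. In bulk RNA, fewer cells of a type and less RNA per cell cannot be told apart.

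The bases before the start site are shown for the 3 genes with the largest IP over INPUT differences, *Entpd2*, *Adora2b* and *Adk*, and for *P2ry1*, the only gene of the 10 whose stress and naïve libraries did not overlap in IP. Each run holds the 250 bases before a RefSeq start site on GRCm38.p6, 5′ to 3′ on the strand of the gene, which is + for all 4. The windows lie at chr2:25395624-25395873, chr11:62248734-62248983, chr14:21052324-21052573 and chr3:61002535-61002784, in this order. Capitals mark matches on either strand to the GC box (GGGCGG), the CCAAT box (CCAAT), the TATA box (TATAAA), the letters AGAACA of a glucocorticoid receptor element and the letters TTGGC of an NFI element, and a CCAAT match can share letters with a TTGGC or a GGGCGG match.
Entpd2: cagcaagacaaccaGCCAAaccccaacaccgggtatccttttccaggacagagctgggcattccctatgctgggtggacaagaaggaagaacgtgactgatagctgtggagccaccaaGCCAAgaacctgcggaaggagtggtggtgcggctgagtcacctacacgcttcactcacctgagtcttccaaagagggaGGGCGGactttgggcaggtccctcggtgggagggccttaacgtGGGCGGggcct
Adora2b: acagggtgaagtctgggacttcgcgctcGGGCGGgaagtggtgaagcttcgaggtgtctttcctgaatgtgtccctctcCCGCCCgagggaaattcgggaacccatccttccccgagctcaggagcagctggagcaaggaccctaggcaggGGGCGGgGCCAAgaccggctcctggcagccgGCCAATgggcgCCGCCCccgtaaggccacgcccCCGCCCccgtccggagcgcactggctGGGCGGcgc
Adk: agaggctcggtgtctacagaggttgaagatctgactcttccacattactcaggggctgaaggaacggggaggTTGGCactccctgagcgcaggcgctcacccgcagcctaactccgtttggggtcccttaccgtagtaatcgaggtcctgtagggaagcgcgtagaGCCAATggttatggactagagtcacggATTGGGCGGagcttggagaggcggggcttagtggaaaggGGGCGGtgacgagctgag
P2ry1: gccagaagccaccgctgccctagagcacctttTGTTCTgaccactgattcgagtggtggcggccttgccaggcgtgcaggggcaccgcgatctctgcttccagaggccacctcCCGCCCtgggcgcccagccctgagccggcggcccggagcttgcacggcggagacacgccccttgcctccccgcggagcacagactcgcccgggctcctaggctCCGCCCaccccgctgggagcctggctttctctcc
No TATA box was found in the 9 genes with a RefSeq window, against 12.4% of all 32817 windows of this length. A GC box was present in 7 of the 9, against 32.7% of all windows, with 6 matches in *Adora2b*. The CCAAT box was found in 2 of the 9, *Adora2b* and *Adk*, against 33.8% of all windows. The TTGGC letters were found in 4 of the 9 (*Entpd2*, *Adora2b*, *Adk* and *P2ry14*), against 41.5% of all windows. AGAACA occurred in *P2ry1* alone, as TGTTCT on the printed strand, starting 218 bases before the start site, and 16.1% of all windows hold it. These are matches of letters only.

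In naïve mice, 5 of the 10 genes had higher levels in IP than in INPUT, which are *Entpd2*, *Adora2b*, *Adk*, *Adora2a* and *P2rx7*. Another 4 were lower (*Nt5e*, *P2ry1*, *Adora1* and *P2rx4*), and *P2ry14* was too low in IP to be tested. Of all 13339 genes tested, 23.7% were higher in IP and 64.0% were lower, with a median log2 difference of -0.64. A gene below INPUT in CPM can therefore still lie above the typical gene, and the position relative to this median is given beside each difference. The plot of CPM by library shows all 160 values behind these comparisons.

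**Figure D1:**
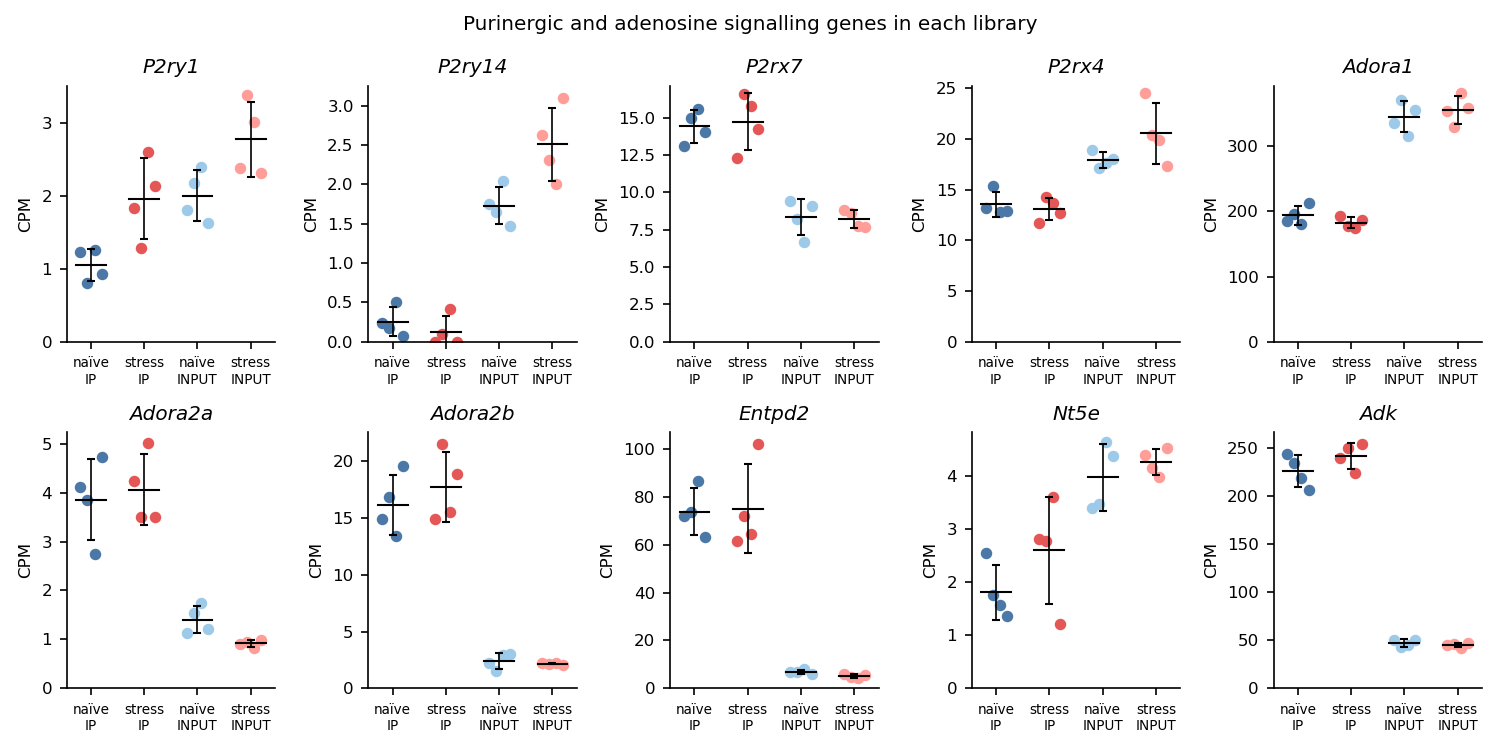
CPM (linear axis from 0) of each of the 10 genes in the 16 libraries, with 1 point per library and the mean ± SD of each group of 4. IP values stand far above INPUT for *Entpd2* (mean 73.9 against 6.96 CPM in naïve mice), *Adk* and *Adora2b*, and far below it for *P2ry14* (0.253 against 1.73 CPM).

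Among the enzymes that act on nucleotides outside the cell, *Entpd2* (Ensembl ENSMUSG00000015085, chr2:25395874-25401321, + strand) encodes an ecto-enzyme that removes a phosphate from ATP and leaves ADP. Its levels were 71.9, 73.6, 86.8 and 63.2 CPM in the 4 naïve IP libraries and 7.00, 6.89, 8.03 and 5.90 CPM in the 4 naïve INPUT libraries. Every IP library was above every INPUT library. The difference was 10.5-fold (log2 3.39 ± 0.11 SE, adjusted p = 2.6e-12), and 4.03 on the log2 scale above the median of all genes. It exceeded the difference of 99.1% of all genes tested. Of its exon bases, 28.8% are shared with *Npdc1*, a gene on the same strand, and how reads there were divided is not given in the sources used here. *Npdc1* differed in the opposite direction, with 33.0 CPM in naïve IP and 111 CPM in naïve INPUT.

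*Nt5e* (chr9:88327197-88372092, + strand) encodes the ecto-5′-nucleotidase CD73, which turns AMP into adenosine. Its naïve IP levels were 2.55, 1.75, 1.57 and 1.36 CPM and its naïve INPUT levels 3.39, 3.47, 4.64 and 4.37 CPM. All IP libraries were lower, by a log2 difference of -1.12 ± 0.21 SE (adjusted p = 0.00019 by limma). Relative to the median of all genes the difference was -0.48, and after quantile normalization it was -0.10 (adjusted p = 0.65), so the call depends on the scaling.

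*Adk* (chr14:21052574-21448569, + strand) encodes adenosine kinase, the enzyme inside the cell that removes adenosine by phosphorylation. Naïve IP libraries held 244, 234, 219 and 207 CPM, and naïve INPUT libraries 50.4, 43.1, 45.0 and 50.6 CPM. The groups were far apart relative to their spread, with a 4.78-fold difference (log2 2.26 ± 0.07 SE, adjusted p = 1.8e-12 by limma). Within single libraries, and per length, the ratio of *Adk* to *Nt5e* was 132 ± 24.6 (SD, n = 4) in naïve IP and 12.2 ± 2.16 in naïve INPUT. The exact permutation p was 0.029, the smallest that 4 against 4 allows, or 0.057 with Benjamini-Hochberg adjustment over the 12 ratio tests made. Such ratios do not depend on how libraries are scaled to each other, and they were added after the values had been seen. *Adk* was higher and *Nt5e* lower in every naïve IP library, so the ratios had to separate and this p adds no support.

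Of the adenosine receptors, *Adora2b* (chr11:62248984-62266453, + strand) encodes the low-affinity receptor that raises cyclic AMP. It was present at 14.9, 16.8, 13.4 and 19.6 CPM in naïve IP and at 2.20, 1.53, 2.89 and 3.00 CPM in naïve INPUT. The INPUT values rest on 26 to 59 reads per library. The lowest IP library was several times the highest INPUT library, and the difference was 6.64-fold (log2 2.73 ± 0.20 SE, adjusted p = 1.4e-08 by limma).

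*Adora2a* (chr10:75316877-75334784, + strand) encodes the high-affinity receptor of the same kind, which is best known from the striatum. It was measured at 4.11, 3.85, 2.74 and 4.73 CPM in naïve IP and at 1.13, 1.53, 1.75 and 1.22 CPM in naïve INPUT, the INPUT values resting on 20 to 35 reads. The 2.61-fold difference passed the test (log2 1.39 ± 0.21 SE, adjusted p = 3.1e-05 by limma).

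*Adora1* (chr1:134199223-134235431, - strand) encodes the receptor that lowers cyclic AMP and dampens transmitter release. It was lower in every naïve IP library, at 186, 196, 180 and 213 CPM, than in naïve INPUT, at 335.5, 370.4, 316 and 355 CPM. The log2 difference was -0.83 ± 0.07 SE (adjusted p = 3.6e-08 by limma), or -0.19 relative to the median of all genes. Of its exon bases, 20.1% lie opposite *Mybph*, which did not exceed 0.256 CPM in any library. The ratio of *Adora2b* to *Adora1* per length was 0.261 ± 0.0234 (SD, n = 4) in naïve IP and 0.0222 ± 0.00704 in naïve INPUT, an 11.8-fold difference. The exact permutation p was 0.029 (0.057 after adjustment), and this separation followed from the opposite directions of the 2 genes. The remaining adenosine receptor gene, *Adora3*, had 0.171 CPM in naïve IP and 0.780 CPM in naïve INPUT, too low to test.

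The ATP-gated channels *P2rx7* (chr5:122643911-122691432, + strand) and *P2rx4* (chr5:122707544-122729738, + strand) are neighbours on one chromosome, and they stood on opposite sides of INPUT. *P2rx7*, whose channel opens only at high ATP, had 13.1, 15.0, 15.6 and 14.0 CPM in naïve IP and 9.43, 8.18, 6.68 and 9.05 CPM in naïve INPUT. All IP values were higher, by 1.73-fold (log2 0.79 ± 0.12 SE, adjusted p = 2.8e-05 by limma). *P2rx4*, whose channel opens at lower ATP, had 13.2, 15.4, 12.8 and 12.9 CPM in naïve IP and 18.9, 17.1, 17.7 and 18.0 CPM in naïve INPUT. Its log2 difference was -0.40 ± 0.09 SE (adjusted p = 0.00073 by limma), which is 0.23 above the median of all genes, and under 2 other scalings its sign turned (0.23 in both, adjusted p = 0.018 with median-ratio factors and 0.020 after quantile normalization). The ratio of *P2rx7* to *P2rx4* per length was 1.26 ± 0.131 (SD, n = 4) in naïve IP and 0.546 ± 0.0686 in naïve INPUT. Its exact permutation p of 0.029 (0.057 after adjustment) likewise followed from the opposite directions of the single genes.

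Both P2Y receptors among the 10 genes were near the lower limit of the measurement in IP. *P2ry1* (chr3:61002795-61008982, + strand), the receptor for ADP that releases calcium from internal stores, had 1.22, 0.806, 1.25 and 0.930 CPM in naïve IP, from 18 to 32 reads, and 1.81, 2.18, 2.39 and 1.63 CPM in naïve INPUT. The groups did not overlap, and the log2 difference was -0.87 ± 0.23 SE (adjusted p = 0.0025 by limma). Relative to the median of all genes it was -0.24, with median-ratio factors -0.27 (adjusted p = 0.28), and after quantile normalization the sign turned (0.40, adjusted p = 0.12). *P2ry14* (chr3:59113855-59153618, - strand), the receptor for UDP-glucose, had 0.245, 0.179, 0.509 and 0.0775 CPM in naïve IP, which is 2 to 13 reads, and 1.75, 1.65, 2.05 and 1.48 CPM in naïve INPUT. Every INPUT library was higher, and the exact permutation p was 0.029, but the mean over the 8 libraries was under the filter of 1 CPM. With no filter the log2 difference was -2.51 (adjusted p = 1.5e-05 by limma). The microglial marker sum, given above, and the related ADP receptors of microglia, *P2ry12* and *P2ry13*, were lower in IP too. *P2ry12* had 7.32 CPM in naïve IP and 49.4 CPM in naïve INPUT, and *P2ry13* had 1.21 and 16.2 CPM. All 7 neuronal and all 4 endothelial markers and 64.0% of all genes were lower in naïve IP as well. The cell type that holds *P2ry14* was not tested.

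Levels of different genes can be compared only per length, as CPM per kb of exon. On this scale *Entpd2* (34.7) and *Adora1* (33.5) were the highest of the 10 in naïve IP, and their ranges over the libraries overlapped. *Adk* (26.5) followed without overlap, then *Adora2b* (8.78). *P2rx7* (2.41) and *P2rx4* (1.93) overlapped with each other, *Adora2a* (1.26) stood below both, *P2ry1* (0.245) and *Nt5e* (0.210) overlapped, and *P2ry14* (0.0228) was the lowest. In naïve INPUT the order was different. *Adora1* led with 59.5, ahead of *Adk* (5.54), *Entpd2* (3.27) and *P2rx4* (2.55), none of which overlapped with its neighbour in the order. The ranges of *P2rx7* (1.40) and *Adora2b* (1.30) overlapped there, as did those of *P2ry1* (0.467), *Nt5e* (0.461) and *Adora2a* (0.459), while *P2ry14* (0.156) was again the lowest. Both orders depend on the lengths used, which are union exons from GENCODE M21, while reads were counted on RefSeq genes. The length was 8526 bases for *Adk* and 2128 for *Entpd2*. In CPM, *Adk* was the highest of the 10 in naïve IP, at 226, ahead of *Adora1* at 194. Overlap here covers the spread between libraries only.

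**Figure D2:**
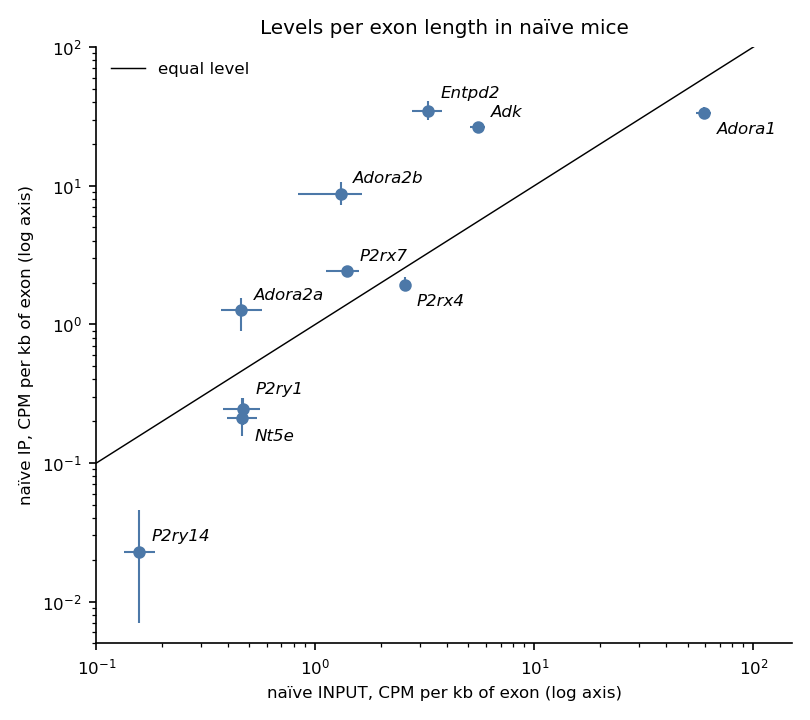
Mean level per length of each gene in naïve INPUT (x axis) and naïve IP (y axis), both in CPM per kb of exon on log axes, with bars from the lowest to the highest of 4 libraries and a line of equal levels. *Adora1* is the highest gene in INPUT (59.5) but shares the top of the IP axis with *Entpd2* (33.5 and 34.7), and *Adora2b* and *Adora2a* lie above the line while *P2ry14* lies far below it.

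In stressed mice the same 5 genes were higher in IP than in INPUT and 4 were lower (*Adora1*, *P2rx4*, *Nt5e* and *P2ry14*). *P2ry1* did not pass the test (log2 -0.50 ± 0.24 SE, adjusted p = 0.062 by limma). Its call depends on the settings, since it passed as lower with a pseudocount of 1 (adjusted p = 0.049), without the variance trend (0.048), with all 16 libraries in one model (0.044) and without stress IP replicate 6 (0.025), and as higher after quantile normalization (log2 0.63, adjusted p = 0.034). Other scalings also ended 2 of the lower calls. *Nt5e* had a log2 difference of -0.18 with median-ratio factors (adjusted p = 0.53) and 0.22 after quantile normalization (adjusted p = 0.42), and *P2rx4* had -0.016 (adjusted p = 0.90) and 0.004 (adjusted p = 0.98). Of 13333 genes tested, 23.6% were higher and 62.5% lower, around a median of -0.63. *Entpd2* was 14.2-fold higher in IP, at 75.0 against 5.13 CPM, *Adora2b* 7.77-fold, at 17.7 against 2.17 CPM, and *Adk* 5.35-fold, at 242 against 45.2 CPM. *Adora2a* was 4.06-fold higher (95% interval 3.02 to 5.45) and *P2rx7* 1.78-fold. The stress INPUT mean of *Adora2a* was 0.917 CPM, under the filter, which it passed through IP. *P2ry14* passed the filter only through INPUT, where it had 2.51 ± 0.462 CPM (SD, n = 4), while 2 of the 4 stress IP libraries held no read of it and the other two held 2 and 9 reads. Per length, the ratios between pairs of genes differed between IP and INPUT in stressed mice as well, at 0.306 and 0.0192 for *Adora2b* to *Adora1*, 1.32 and 0.475 for *P2rx7* to *P2rx4*, and 113 and 10.7 for *Adk* to *Nt5e* (exact permutation p = 0.029 for each, or 0.057 with Benjamini-Hochberg adjustment over the 12 ratio tests made). The single genes of each pair had separated in opposite directions here too, so these p-values add no support.

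**Figure D3:**
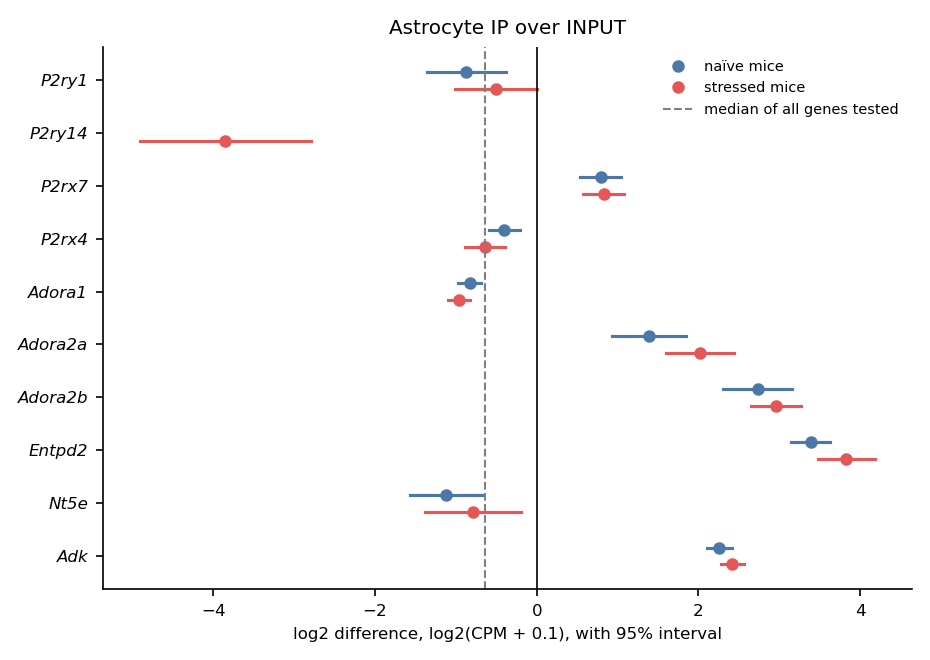
Log2 difference of IP over INPUT on log2(CPM + 0.1), with its 95% interval, in naïve mice (blue) and stressed mice (red), against 0 (solid line) and the median of all genes in naïve mice (dashed line, -0.64). *P2ry14* has no naïve value because it was under the filter. *Entpd2*, *Adora2b*, *Adk*, *Adora2a* and *P2rx7* lie to the right of 0 in both conditions.

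No gene of the 10 passed the threshold for stress in either fraction. In IP, 0 of the 9 genes tested passed, by limma and by limma-voom on the recovered reads alike, where 0.440% of all 12501 genes did. At an unadjusted p under 0.05, 1 of the 9 passed (*P2ry1*), against 8.27% of all genes, and the same gene was the only 1 of the 9 whose stress and naïve libraries did not overlap, as was the case for 5.00% of all genes. With 9 genes, a count of 1 cannot be told from these background shares.

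*P2ry1* was found at 1.22, 0.806, 1.25 and 0.930 CPM in naïve IP and at 1.83, 1.28, 2.60 and 2.13 CPM in stress IP. The lowest stress library stood just above the highest naïve library. The difference was 1.76-fold (95% interval 1.19 to 2.60, log2 0.82, unadjusted p = 0.0081, adjusted p = 0.35 by limma), and the exact permutation p was 0.029. Its adjusted p ranged from 0.11 to 0.81 over the alternatives. Without naïve IP replicate 11 the log2 difference was 0.90 and without stress IP replicate 15 it was 0.76. The values rest on 18 to 57 reads per library. An antisense transcript in the annotation covers 23.1% of its exon bases, and whether the counting used strand is not given in the sources used here. In INPUT, naïve libraries had 1.81, 2.18, 2.39 and 1.63 CPM and stress libraries 2.38, 3.37, 3.01 and 2.32 CPM, so that the groups overlapped (log2 0.45, 95% interval 0.02 to 0.87, adjusted p = 0.97 by limma). The difference between the IP and INPUT effects was 0.37 on the log2 scale (95% interval -0.30 to 1.04, adjusted p = 1.0). In IP, no tested marker of another cell type was called for stress in either direction, while 1 of the 8 astrocyte markers was called lower. The marker lists of the other cell types had median log2 differences from -0.43 to -0.08. Whether RNA of other cell types entered the *P2ry1* values was not tested.

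The other 8 genes tested in IP had intervals that include a fold of 1. For the abundant genes, the fold of stress over naïve was 1.07 for *Adk* (95% interval 0.970 to 1.18), 0.944 for *Adora1* (0.858 to 1.04) and 1.00 for *Entpd2* (0.804 to 1.25). *Entpd2* had a wide spread in stress IP, with 102 CPM in replicate 15 and 61.4, 72.0 and 64.7 CPM in the others, and its log2 difference without replicate 15 was -0.16. *Adora2b* had a fold of 1.09 (0.884 to 1.35), *P2rx7* of 1.02 (0.866 to 1.20), *P2rx4* of 0.965 (0.831 to 1.12) and *Adora2a* of 1.06 (0.796 to 1.41). For *Nt5e*, 3 stress IP libraries (2.81, 2.76 and 3.61 CPM) stood above all 4 naïve ones and the remaining one (1.21 CPM) below all of them, which gave a fold of 1.36 (0.846 to 2.18, log2 0.44, adjusted p = 0.77 by limma). The low library is replicate 15, and without it the log2 difference was 0.76 (adjusted p = 0.18 by limma). *P2ry14* was not tested in IP.

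In INPUT, 0 of 10 genes passed, by limma and by limma-voom alike, where 0.0442% of all 13577 genes did. At an unadjusted p under 0.05, 4 of the 10 passed (*Adora2a*, *Entpd2*, *P2ry1* and *P2ry14*), against 5.03% of all genes. These are unadjusted values of a list picked with earlier results known, and none had an adjusted p under 0.77. The groups did not overlap for 1 of the 10, *Adora2a*, against 2.87% of all genes.

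*Adora2a* had 1.13, 1.53, 1.75 and 1.22 CPM in naïve INPUT and 0.915, 0.940, 0.822 and 0.993 CPM in stress INPUT. All 4 stress libraries were lower and close to each other, with a mean of 0.917 CPM, which is under the filter of 1 CPM. The gene passed the filter in INPUT only through its naïve libraries, where it was higher. The log2 difference was -0.55 (95% interval -1.05 to -0.05, unadjusted p = 0.034, adjusted p = 0.97 by limma; exact permutation p = 0.029). These values are 15 to 35 reads per library. In IP the groups overlapped, with means of 3.86 CPM (naïve) and 4.06 CPM (stress). *Entpd2* had 7.00, 6.89, 8.03 and 5.90 CPM in naïve INPUT and 6.16, 4.70, 4.15 and 5.52 CPM in stress INPUT. Only 1 stress library was above the lowest naïve one, and the log2 difference was -0.44 (95% interval -0.76 to -0.12, unadjusted p = 0.011, adjusted p = 0.77 by limma). *P2ry14* had 1.75, 1.65, 2.05 and 1.48 CPM in naïve INPUT and 2.62, 2.31, 2.01 and 3.09 CPM in stress INPUT. The groups overlapped in 1 pair of libraries, and the log2 difference was 0.50 (95% interval 0.08 to 0.93, unadjusted p = 0.024, adjusted p = 0.92 by limma). Across the 8 microglial markers no call was made in INPUT, and their median log2 difference was -0.05. The other 6 genes had folds between 0.934 (*Adora2b*) and 1.14 (*P2rx4*), all with intervals that include 1.

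**Figure D4:**
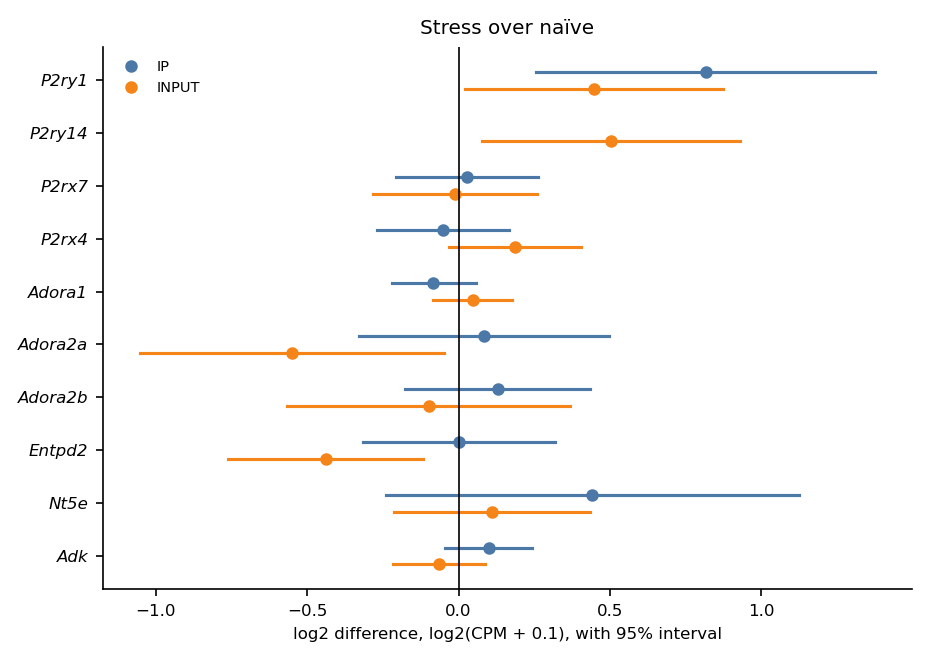
Log2 difference of stress over naïve on log2(CPM + 0.1), with its 95% interval, in IP (blue) and INPUT (orange). Intervals clear of 0 belong to *P2ry1* in IP (0.82) and to *P2ry1*, *P2ry14*, *Adora2a* and *Entpd2* in INPUT, and none of these passed after adjustment. *P2ry14* has no IP value because it was under the filter.

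Whether the response to stress differed between IP and INPUT was tested on all 16 libraries. No gene of the 10 passed (0.0225% of all 13341 genes did), and 0 passed with limma-voom. At an unadjusted p under 0.05 there were 2, *Adora2a* (log2 0.63, 95% interval 0.05 to 1.22, unadjusted p = 0.035, adjusted p = 1.0 by limma) and *P2ry14* (log2 -1.34, 95% interval -2.67 to -0.01, unadjusted p = 0.048, adjusted p = 1.0 by limma), against 4.71% of all genes. *P2ry14* entered this test through its INPUT level alone, being under 1 CPM in both IP groups. The IP side of its value is 24 reads over the 4 naïve libraries and 11 reads over the 4 stress libraries. *Entpd2* had a difference of 0.44 (95% interval -0.01 to 0.89). The ratios per length between pairs of genes did not pass in either fraction when stress and naïve were compared (6 comparisons, exact permutation p from 0.14 to 0.57).

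The rest of the pathway was followed in a list of 46 other purine genes, of which 28 were tested for IP over INPUT in naïve mice. Of these, 10 were higher in IP, 16 were lower and 2 did not pass, around a median log2 difference of -0.57, close to that of all genes (-0.64). The 4 highest were *Alpl*, *Slc29a3*, *Pnp* and *Ahcyl1*. *Alpl*, an alkaline phosphatase that strips phosphates at the cell surface, had 70.5 CPM in naïve IP and 8.63 CPM in naïve INPUT (log2 3.02). *Slc29a3*, a nucleoside transporter of lysosomes, had 67.4 and 10.0 CPM (log2 2.74). *Pnp*, which splits purine nucleosides inside the cell, had 39.2 and 6.80 CPM (log2 2.50). *Ahcyl1*, a relative of the enzyme that forms adenosine from S-adenosylhomocysteine, had 1632 and 349 CPM (log2 2.23).

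The counts by role are a description, to be read against the 23.7% higher and 64.0% lower among all genes, and differences between roles were not tested. Of the genes counted here and above, *Panx1*, *Entpd3*, *P2ry6* and *Slc29a4* had naïve IP means under the filter of 1 CPM. They passed it only through INPUT, where they were higher, and so could enter only as lower. *P2ry2*, with 0.493 CPM in naïve INPUT, passed only through IP. Among the genes of adenosine metabolism 5 of 8 tested were higher in IP, 2 were lower and 1 did not pass. The 3 genes of ATP release that were tested were lower, with *Panx1*, a channel through which ATP leaves the cell, at 0.662 and 13.1 CPM in the same order (log2 -4.11) and its relative *Panx2* at 9.37 and 67.2 CPM (log2 -2.84). *Entpd3*, an ecto-enzyme related to *Entpd2*, had 0.752 and 7.47 CPM (log2 -3.15). It was 1 of the 4 lower genes among 5 ecto-nucleotidases tested, the other being *Alpl*. Of the 4 P2Y receptors tested 3 were lower, with *P2ry13* at a log2 difference of -3.66. The nucleoside transporters were split, 2 higher and 2 lower.

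**Figure D5:**
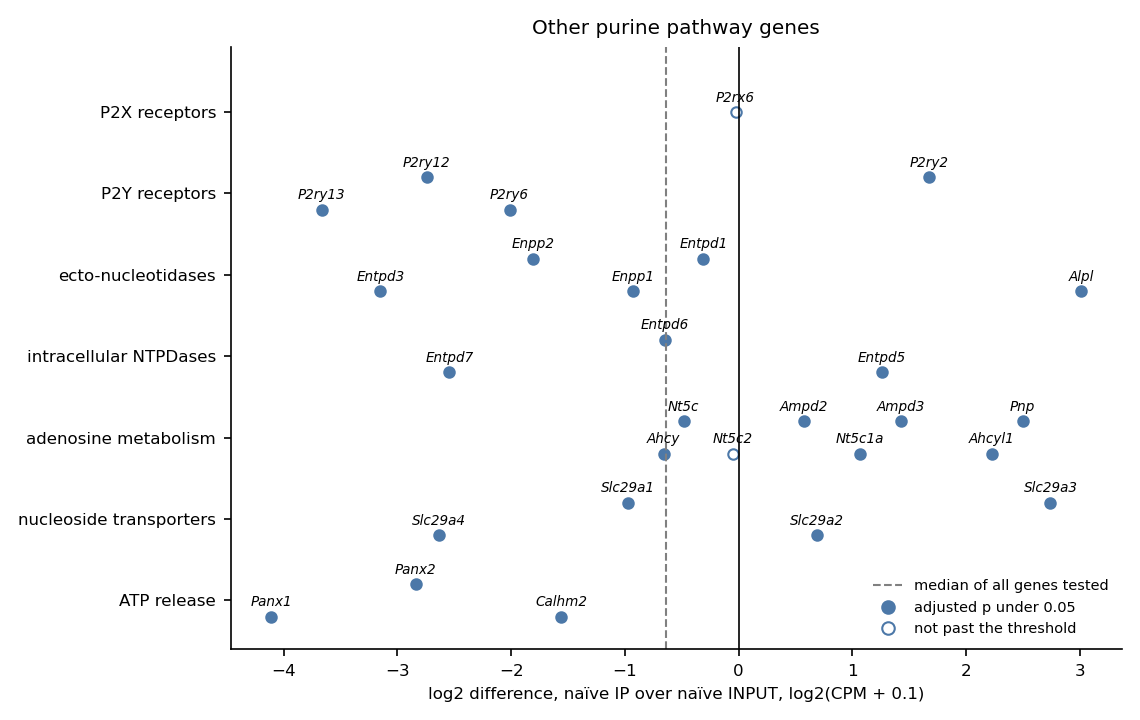
Log2 difference of naïve IP over naïve INPUT on log2(CPM + 0.1) for the 28 tested genes of the list of 46, by role, with filled points past an adjusted p of 0.05, and lines at 0 (solid) and at the median of all genes (dashed, -0.64). *Alpl* (3.02) lies farthest to the right and *Panx1* (-4.11) farthest to the left.

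Stress moved no gene of this list past the threshold, among 24 tested in IP, 28 in INPUT and 28 for the difference of the effects. At an unadjusted p under 0.05 there was 1 of 24 in IP, where 8.27% of all genes passed. This was *Panx2*, whose mean was 9.37 CPM without and 7.23 CPM with stress (log2 -0.36). In INPUT there were 4 of 28, where 5.03% of all genes passed. These were *P2ry12*, *P2ry13*, *Enpp2* and *Ahcy*, all with lower means in stressed mice. For the difference of the effects there were 0 of 28, where 4.71% of all genes passed. These 5 genes were singled out after their values were seen. The lowest adjusted p among them was that of *P2ry13*, with 17.9, 15.7, 15.1 and 16.0 CPM in naïve INPUT and 11.4, 14.4, 9.63 and 9.21 CPM in stress INPUT. Its groups did not overlap, and the log2 difference was -0.55 (unadjusted p = 0.0010, adjusted p = 0.28 by limma). Without stress INPUT replicate 9, which had the highest stress value (14.4 CPM), the adjusted p was 0.029 by limma. *P2ry13* did not pass in any other alternative run, and with no filter its adjusted p was 0.41 by limma. The library left out is the one closest to the naïve values, so this fit is no support for an effect. Leaving out replicate 9 also raised the number of all genes called in INPUT from 6 to 18.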

How the data were processed

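RNA sequencing was available for 16 libraries, 4 per group. Per the labels and the study's methods, the authors depleted ribosomal RNA, aligned reads to mm10 with STAR and counted unique reads on RefSeq genes with HTSeq. The authors deposited the log2 of CPM per gene and library, with a small constant added, neither corrected for gene length nor rescaled between libraries. From these values CPM were recovered, 100% of which were whole reads to within 0.1 read.

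The tests used limma 3.58.1 (R 4.3.3) on log2(CPM + 0.1), with a variance trend, over genes with a mean above 1 CPM, with Benjamini-Hochberg adjustment over all genes tested and a threshold of 0.05. For single genes, all 70 labelings of 8 libraries gave an exact permutation p, two-sided. Lengths, as union exons, came from GENCODE M21 on GRCm38 (94.6% of symbols matched), and sequences from RefSeq. A limit of 3 reads corresponds to at most 0.183 CPM and covers counting error only, while the 95% intervals reflect the spread between libraries. By the study's account each condition held 4 mice, and the tissue of each mouse was homogenized on its own. The labels do not name the mouse of a library, and p-values measure the spread between libraries. Pseudocount, filter, scaling, limma-voom, a shared model, *Xist* as a covariate and each library left out were tried as alternatives. The 10 genes and all lists were chosen with earlier results of these data known. No gene from the list of 46 passed the threshold for stress. Those named were the 4 highest and 4 lowest in IP over INPUT and relatives of a gene described. Genes that passed the filter only through IP or only through INPUT were named too. Genes with an unadjusted p under 0.05 by limma in a stress comparison were added after their values were seen. Sex is not given per library. By *Xist*, each group held 2 female and 2 male libraries.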

Additional observations from a re-analysis of the deposited data

Results flagged for a closer look

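One value stood apart from the rest of its group. *P2rx4* had 15.4 CPM in naïve IP replicate 8, while the other 3 naïve IP libraries lay between 12.8 and 13.2 CPM. The gap to the nearest library was 0.861 of the whole range of the group, above the 95% critical value of Dixon's test for 4 samples. It was 1 of 40 groups of 4 that were checked, where chance gives about 2. Without this library, the log2 difference of stress over naïve in IP for *P2rx4* was 0.01 instead of -0.05, and neither passed the test.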

How the results depend on the processing

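No member of the 10 passed in a stress comparison or in the difference of the stress effects under any of the alternatives run. *Entpd2*, *Adora2b*, *Adk*, *Adora2a* and *P2rx7* stayed higher in IP, and *Adora1* lower, in all alternatives run in both conditions. With median-ratio factors, IP over INPUT in naïve mice split all genes into 5586 higher and 5643 lower (3158 and 8540 with the library totals). The 9 genes tested of the 10 split into 6 and 2. After quantile normalization these 9 genes split into 6 and 1. *P2ry14*, under the filter, was not tested in either. In naïve mice *P2rx4* turned to 0.233 (median ratio) and 0.234 (quantile) and *P2ry1* to 0.401 (quantile). In stressed mice *P2ry1* turned to 0.098 (median ratio) and 0.632 (quantile, adjusted p = 0.034), *Nt5e* to 0.218 and *P2rx4* to 0.004 (both quantile), while with median-ratio factors *Nt5e* (-0.181) and *P2rx4* (-0.016) no longer passed. The cause was not tested.

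The number of all genes called for stress in IP was 55, and it was 19 without the variance trend, 124 with all 16 libraries in one model, and 17 to 122 with 1 library left out, the highest without naïve IP replicate 11. In INPUT it was 6, and it was 0 without the trend (727 at an unadjusted p under 0.05), 2 in the model of 16, and 1 to 32 with 1 library left out, the highest without naïve INPUT replicate 14. For the difference of the effects it was 3, and 2 to 28, the highest without naïve IP replicate 11. With 1 library left out, signs near 0 turned. In IP the log2 difference of stress over naïve ranged from -0.156 to 0.088 for *Entpd2*, -0.032 to 0.11 for *P2rx7*, -0.094 to 0.011 for *P2rx4* and -0.067 to 0.187 for *Adora2a*. In INPUT it ranged from -0.113 to 0.05 for *P2rx7* and -0.29 to 0.019 for *Adora2b*, and the difference of the effects from -0.023 to 0.14 for *P2rx7*. No paired analysis was possible because the groups share no library numbers. Depth limits *P2ry1*, *P2ry14*, *Adora2a* and *Nt5e*, with at most 122 reads in any library. It also limits *Adora2b* in INPUT, with 26 to 59 reads in naïve and 37 to 50 in stress libraries.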

Other observations

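Over the 16 libraries, the genes whose levels followed *Entpd2* most closely among 13340 compared were *Phgdh* (Pearson r = 0.996), *Itgb8* (r = 0.995) and *Plxnb1* (r = 0.995). *Phgdh*, the first enzyme of serine synthesis from glucose, had 94.5 CPM in naïve IP, 93.7 CPM in stress IP, 10.2 CPM in naïve INPUT and 9.58 CPM in stress INPUT. *Itgb8*, an integrin subunit, had 314 CPM in naïve IP and 42.6 CPM in naïve INPUT. *Plxnb1*, a semaphorin receptor, had 926 CPM in naïve IP and 52.8 CPM in naïve INPUT. These points share the large step between IP and INPUT libraries, and the correlation is given as a description.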
